A study of Mus musculus with 24 samples.

Results

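Nicotinamide adenine dinucleotide (NAD) is made, spent and phosphorylated by a small set of enzymes, and 10 of their genes were followed in mouse pancreas: Nampt, Naprt, Nmrk1, Nmnat1, Nmnat3, Nadk, Sirt1, Sirt3, Sirt6 and Parp1. They were taken as the rows of the gene table whose Ensembl identifier carries 1 of these symbols. The rule uses no measured value, but the symbols were picked with earlier results of these data known. They are 10 of 51912 genes in the table. All 10 were among the 14000 genes that passed the filter on low counts and were tested.

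NAD carries electrons in metabolism and is also split by enzymes that use it up, so cells rebuild it from nicotinamide, nicotinic acid or nicotinamide riboside. NAMPT, the rate-limiting enzyme of the route from nicotinamide, is known as an output of the circadian clock: CLOCK and BMAL1 activate Nampt through E-boxes, and SIRT1, which spends NAD, in turn acts on the clock proteins. These links were described mainly in liver and cultured cells.

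RNA-seq was done on whole pancreas of 24 C57Bl/6J mice in 8 groups of 3: males and females, early and late, of the normal circadian and the circadian disrupted condition. The 12 early animals were sampled on day 1 at zeitgeber time 8, the 6 late females on day 8 at zeitgeber time 176 and the 6 late males on day 9 at zeitgeber time 200. Counted within the day, all of these times are hour 8. The series title speaks of reentrainment, the return of a clock to a light schedule, and the design sets an early against a late stage of it. How the rhythm was disrupted, the day from which days were counted and the ages of the mice are left unstated in the sources, and no mouse carries a stated transgene or deletion.

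Depth was 31325562 to 62390463 counts per mouse. The label of the tissue was borne out by its markers: the summed level of 8 acinar genes, those of the enzyme-secreting cells, was 236187 to 295996 CPM (counts scaled to library size) over the 24 mice. RNA of other cells was present in unequal amounts, with 10 lymphocyte genes summing to 0.934 to 112 CPM, 7 macrophage and neutrophil genes to 17.2 to 76.5 CPM and 7 adipocyte genes to 6.34 to 61.7 CPM. None of these markers was at 0 in all mice. In such bulk tissue, fewer cells of a type and less RNA per cell cannot be told apart. The condition moved the clock genes at both time points: of 15 clock genes 4 rose and 10 fell in disrupted mice early, and 7 rose and 1 fell late. Over all 14000 genes, 4.56% were called early and 1.35% late. The clock list was chosen with earlier results of these data known.

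Promoter sequence is shown for Nampt, Sirt1, Parp1 and Nadk, because Nampt is the textbook clock output of the set and the other genes are the ones whose window holds the E-box CACGTG, the palindromic motif that CLOCK and BMAL1 bind. The windows come from RefSeq (GRCm38.p6), run from 250 bases before to 50 bases after a transcription start, are written 5′ to 3′ on the strand of the gene, and carry CACGTG in capitals.
Nampt, chr12:32820085-32820384, plus strand: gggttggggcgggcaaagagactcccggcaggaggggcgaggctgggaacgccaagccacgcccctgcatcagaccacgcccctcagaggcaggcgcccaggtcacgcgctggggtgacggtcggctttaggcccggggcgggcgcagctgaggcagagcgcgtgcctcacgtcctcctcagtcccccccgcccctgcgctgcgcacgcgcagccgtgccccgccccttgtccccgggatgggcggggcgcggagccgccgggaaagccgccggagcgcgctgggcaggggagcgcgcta
Sirt1, chr10:63338986-63339285, minus strand: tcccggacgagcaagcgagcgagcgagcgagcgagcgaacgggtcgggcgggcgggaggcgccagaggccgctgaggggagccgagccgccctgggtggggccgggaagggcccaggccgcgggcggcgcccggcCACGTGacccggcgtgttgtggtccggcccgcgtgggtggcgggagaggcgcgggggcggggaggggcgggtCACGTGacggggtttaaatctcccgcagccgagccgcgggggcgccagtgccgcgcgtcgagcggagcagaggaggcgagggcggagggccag
Parp1, chr1:180568641-180568940, plus strand: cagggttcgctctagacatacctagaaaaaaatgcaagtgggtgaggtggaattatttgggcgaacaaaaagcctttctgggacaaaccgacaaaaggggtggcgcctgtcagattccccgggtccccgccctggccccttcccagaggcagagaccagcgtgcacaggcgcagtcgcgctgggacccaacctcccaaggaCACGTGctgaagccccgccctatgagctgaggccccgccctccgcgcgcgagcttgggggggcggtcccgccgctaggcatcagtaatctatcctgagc
Nadk, second start, chr4:155563565-155563864, plus strand: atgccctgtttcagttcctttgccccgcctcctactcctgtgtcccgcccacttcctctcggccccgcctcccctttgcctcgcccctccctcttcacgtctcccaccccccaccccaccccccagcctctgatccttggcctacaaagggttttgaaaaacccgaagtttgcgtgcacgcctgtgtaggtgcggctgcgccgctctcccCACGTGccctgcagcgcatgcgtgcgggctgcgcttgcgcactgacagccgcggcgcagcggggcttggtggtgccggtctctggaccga

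Of the 10 genes, 9 had a RefSeq window, 13 windows in all. CACGTG occurred in 3 of the 9: in Sirt1 at 115 and 43 bases before the start, in Parp1 at 49 bases before it and in Nadk at 40 bases before the second of its starts. The Nampt window held none. The motif reads the same on both strands, and 7.15% of 32851 RefSeq windows of the same length held it, as did 5 of 14 clock genes with a window. Shares over all windows are by window, while the counts of members and clock genes are by gene, with any of its windows counted. The related letters CACGTT, searched on both strands, were in 0 of 9 member genes against 4.68% of all windows, and TTATGTAA, the D-box form that DBP and NFIL3 bind, was in 0 of 9 against 0.938%. These are matches of letters within a short window and say nothing of binding.

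Levels of different genes were compared per kilobase of exon, with all annotated exons of a gene merged. The lengths of the transcripts present were not used. Nadk, whose product phosphorylates NAD to NADP, had the highest level, with 8.35 ± 0.709 CPM per kilobase (mean ± SD, 24 mice). Parp1, which encodes the poly(ADP-ribose) polymerase that spends NAD at DNA breaks, followed at 2.94 ± 0.239, and Naprt, which encodes the first enzyme of the route from nicotinic acid (the Preiss-Handler route), at 2.88 ± 0.448. Nampt stood at 0.85 ± 0.125 and Sirt1, the nuclear deacetylase, at 0.635 ± 0.127 CPM per kilobase.

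The other 5 genes lay close together on the per-kilobase scale. Their order depends on that scale: in CPM alone Sirt3 had a mean of 2.3 and Sirt6 of 1.16. Sirt6, a sirtuin of chromatin, was at 0.416 ± 0.0997 and Nmnat3, the mitochondrial adenylyltransferase that completes NAD, at 0.411 ± 0.0704. Nmrk1, the nicotinamide riboside kinase, was at 0.407 ± 0.0603, Sirt3, the mitochondrial deacetylase, at 0.385 ± 0.054 and Nmnat1, the nuclear adenylyltransferase, at 0.344 ± 0.0431. In that order, only the steps from Nadk to Parp1 and from Naprt to Nampt held in 24 of 24 mice without overlap of the ranges. Nampt was above Sirt1 in 22 of 24 mice, with overlapping ranges, and Naprt was level with Parp1, which was the higher of the pair in 11 of 24 mice.

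Depth per gene and the spread between mice both limit how fine a difference could be seen. Nadk had 855 to 2134 counts per mouse, a counting error of 3.01% at its median, and Nmnat1 had 27 to 68 counts, a counting error of 16.2%. The coefficient of variation over the 24 mice ran from 8.12% for Parp1 to 23.9% for Sirt6. That of Nmnat1, 12.5%, was below that of nearly all genes of like level, of which 0.354% varied less. It was also below the counting error of Nmnat1, 16.2%, so it cannot show how steady the gene was between mice.

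No gene of the 10 had 2 sets of 6 mice without overlap between conditions, which 2.31% of all genes tested had early and 1.04% late, nor between time points, which 4.99% had in disrupted and 0.914% in normal mice.

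**Figure D1:**
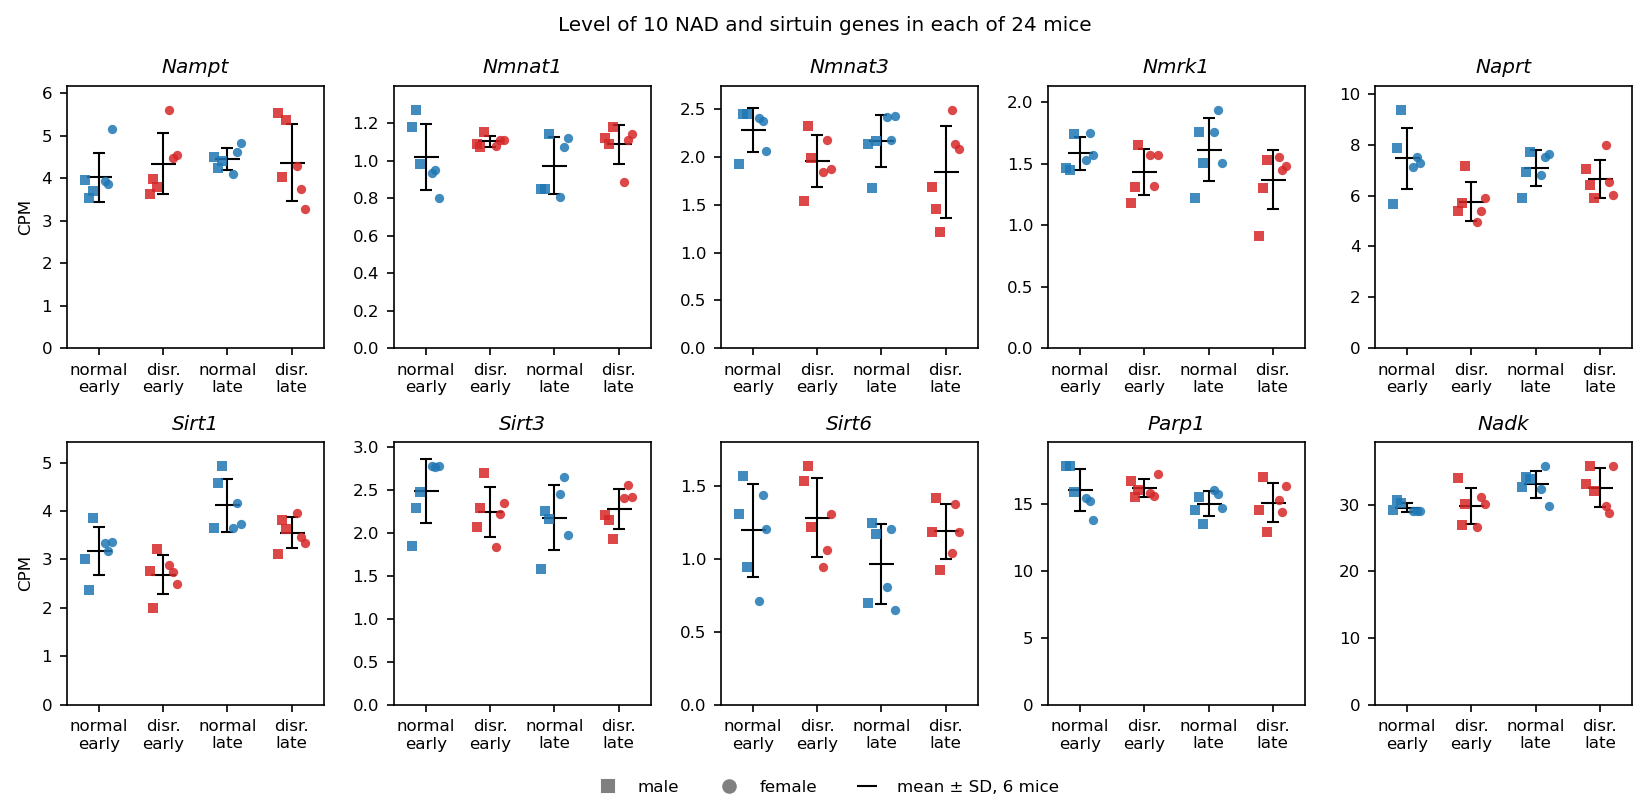
Level in CPM (vertical axis, from 0, a scale of its own in each panel) of each of the 10 genes in each of the 24 mice, by condition and time point, with squares for males, circles for females and bars for mean ± SD of 6 mice; "disr." stands for circadian disrupted. Naprt had an early median of 7.39 CPM in normal and 5.55 CPM in disrupted mice, the Sirt1 median went from 2.76 to 3.55 CPM in disrupted mice, a called rise, and from 3.26 to 3.95 CPM in normal mice, without a call, and the sets of 6 mice overlapped in all 10 panels in each of these comparisons.

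At the early time point Naprt was lower in disrupted than in normal mice and the other 9 genes did not pass the test, so 1 of 10 was called where 4.56% of all 14000 genes were, and 2.47% in this direction. The median log2 fold change of the 10 genes, disrupted minus normal, was -0.06 and their median absolute change 0.13, beside 0.00 and 0.12 over all genes tested. The 15 clock genes of the same mice had a median absolute change of 2.45.

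Among the enzymes that start NAD synthesis, Naprt (ENSMUSG00000022574, chromosome 15, 75890956 to 75894481, minus strand, GRCm38) was at a lowest, median and highest level of 5.65, 7.39 and 9.37 CPM in the 6 normal mice and 4.96, 5.55 and 7.17 CPM in the 6 disrupted mice. The sets overlapped, through normal male 1 at 5.65 CPM and disrupted male 3 at 7.17 CPM. The log2 fold change was -0.37 ± 0.10 (SE; 95% confidence interval -0.58 to -0.16), a change of -22.8%, with adjusted p = 0.0338 in edgeR's quasi-likelihood test with Benjamini-Hochberg adjustment. The call did not hold in either sex alone, with log2 fold changes of -0.32 (adjusted p = 0.381) in males and -0.43 (adjusted p = 0.165) in females, and 9 of 24 fits that each left out 1 mouse lost it, with adjusted p up to 0.123. Those 9 mice were normal male 2 and 3, normal female 1, 2 and 3, disrupted male 1 and 2 and disrupted female 1 and 2.

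Naprt shares 277 exonic bases, 11.8% of its own, with Eef1d on the same strand, where reads were divided by estimation. Eef1d itself was at -0.06 (adjusted p = 0.65). Lymphocyte markers were higher in the same disrupted mice, with 1 of 8 tested genes called and a summed level of 11.3 to 112 CPM against 4.41 to 53 CPM. Of the other marker lists, 1 of 3 tested hepatocyte genes was called higher, Alb at 3.23 on the log2 scale, as were 1 of 8 acinar, 1 of 5 ductal and 1 of 4 endothelial genes. Over all genes, 4.56% were called in either direction. All 4 endothelial genes had values above 0, 3 of them at an unadjusted p under 0.05, beside 2482 of all 14000 genes. Without disrupted early female 1 and disrupted late female 1, which had 112 and 39.8 CPM of lymphocyte RNA, Naprt was at -0.34 (adjusted p = 0.0642), but 2 mice with more of it than the latter were kept there. Without the 3 mice with the most lymphocyte RNA of all 24, disrupted early female 1, disrupted late male 1 and normal early female 3, which also had the most macrophage and adipocyte RNA, it was at -0.34 (adjusted p = 0.13). The part of these cells in the result was not tested further.

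Nampt (ENSMUSG00000020572, chromosome 12, 32819545 to 32853349, plus strand) was at 3.53, 3.9 and 5.15 CPM in normal early mice and at 3.64, 4.23 and 5.61 CPM in disrupted early mice. The sets overlapped, but the normal range reached 5.15 CPM through female 3 alone, the other 5 normal mice being at 3.53 to 3.96 CPM. Disrupted male 2 and females 1, 2 and 3, at 3.99, 5.61, 4.47 and 4.55 CPM, lay above those 5 mice. Disrupted male 1 and 3, at 3.64 and 3.8 CPM, lay among them. The log2 fold change was 0.10 ± 0.10 (interval -0.09 to 0.30, adjusted p = 0.624), while Arntl, which encodes BMAL1, rose by 4.56 and Dbp, a direct clock output, fell by 5.41 on the log2 scale in these mice. All mice were sampled at the same clock hour, so a rhythm of Nampt and its phase were not measured. A difference of Nampt between -6.18% and 23.2% lies within the interval. Nmrk1 ran from 1.45 to 1.75 CPM in normal and from 1.18 to 1.65 CPM in disrupted mice, with overlap and a log2 fold change of -0.14 (interval -0.41 to 0.13).

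Of the enzymes that finish and convert NAD, Nmnat1 was at 0.798 to 1.27 CPM in normal and 1.07 to 1.15 CPM in disrupted early mice, the second range lying inside the first, with a log2 fold change of 0.12 (interval -0.15 to 0.40). Nmnat3 was at 1.92 to 2.45 CPM and 1.54 to 2.32 CPM, with overlap and a log2 fold change of -0.22 (interval -0.46 to 0.02). Nadk, the gene with the most counts, was at 29.0 to 30.7 CPM in normal and 26.7 to 34 CPM in disrupted mice. Its log2 fold change of 0.01 had an interval of -0.11 to 0.14, or -7.66% to 10.5%.

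Of the enzymes that spend NAD, Sirt1 (ENSMUSG00000020063, chromosome 10, 63319005 to 63381704, minus strand) was at 2.36, 3.26 and 3.86 CPM in normal and 2.00, 2.76 and 3.21 CPM in disrupted early mice. The sets overlapped, and the log2 fold change was -0.23 (interval -0.47 to 0.01, adjusted p = 0.3). Sirt3 had a log2 fold change of -0.14 (interval -0.36 to 0.09), Sirt6 of 0.08 (interval -0.31 to 0.47) and Parp1 of 0.02 (interval -0.11 to 0.14), the last at 13.8 to 17.8 CPM in normal and 15.5 to 17.2 CPM in disrupted mice. Sirt3 shares 418 exonic bases with Ric8a and 342 with Psmd13 on the opposite strand, and without a stated strand setting such reads cannot be told apart.

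**Figure D2:**
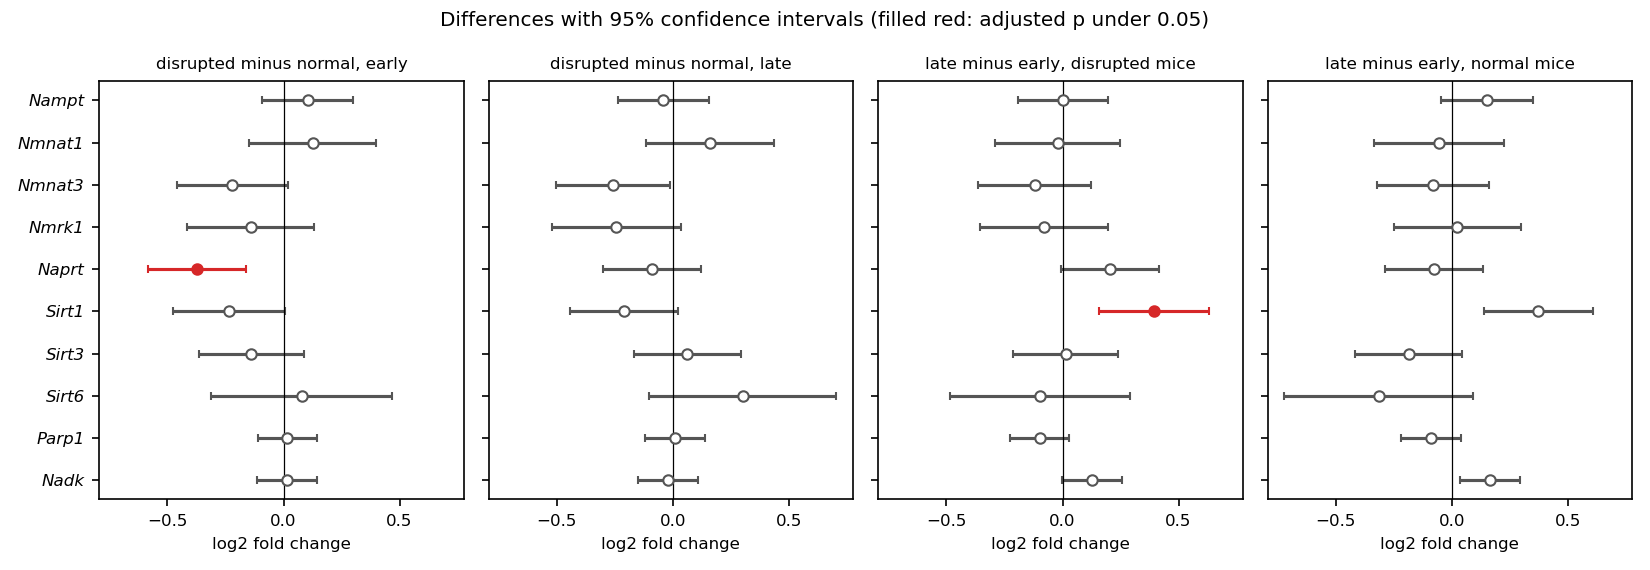
Log2 fold changes (horizontal axis) of the 10 genes with 95% confidence intervals in 4 comparisons, filled red where the adjusted p was under 0.05. Red marks are Naprt early, at -0.37, and Sirt1 from early to late in disrupted mice, at 0.39, beside 0.37 in normal mice without a call.

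At the late time point 0 of 10 NAD genes were called by edgeR's quasi-likelihood test or by DESeq2, where 1.35% of all genes were called by the former. One gene, Nmnat3, had an unadjusted p under 0.05, beside 2050 of all 14000 genes. Nmnat3 was at 1.67, 2.17 and 2.43 CPM in normal and 1.21, 1.88 and 2.49 CPM in disrupted late mice. The sets overlapped, and the log2 fold change was -0.26 (interval -0.50 to -0.01, adjusted p = 0.307). The median absolute change of the 10 genes was 0.12, beside 0.12 over all genes and 0.96 over the 15 clock genes. Naprt was at 5.89, 7.22 and 7.73 CPM in normal and 5.91, 6.48 and 7.97 CPM in disrupted late mice, nearly the same range, with a log2 fold change of -0.09 (interval -0.30 to 0.12, adjusted p = 0.725). Nampt was at 4.10, 4.45 and 4.83 CPM against 3.27, 4.15 and 5.53 CPM, the normal mice lying within the range of the disrupted ones, with a log2 fold change of -0.04 (interval -0.24 to 0.15). Sirt6 had the largest positive value of the 10, 0.30 (interval -0.10 to 0.70), and Nmrk1 was at -0.24 (interval -0.52 to 0.03).

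The condition difference itself was then compared between late and early mice. In that test 0 of 10 genes were called by either tool, where edgeR's quasi-likelihood test called 4.77% of all genes. At an unadjusted p under 0.05 were 2515 of all 14000 genes and 0 of the 10. For Naprt the late minus the early difference was 0.28 (interval -0.01 to 0.58, adjusted p = 0.31), so the early call and the absence of a late one were not shown to differ. The median absolute value over the 10 genes was 0.07, beside 0.17 over all genes tested and 3.20 over the clock genes.

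**Figure D3:**
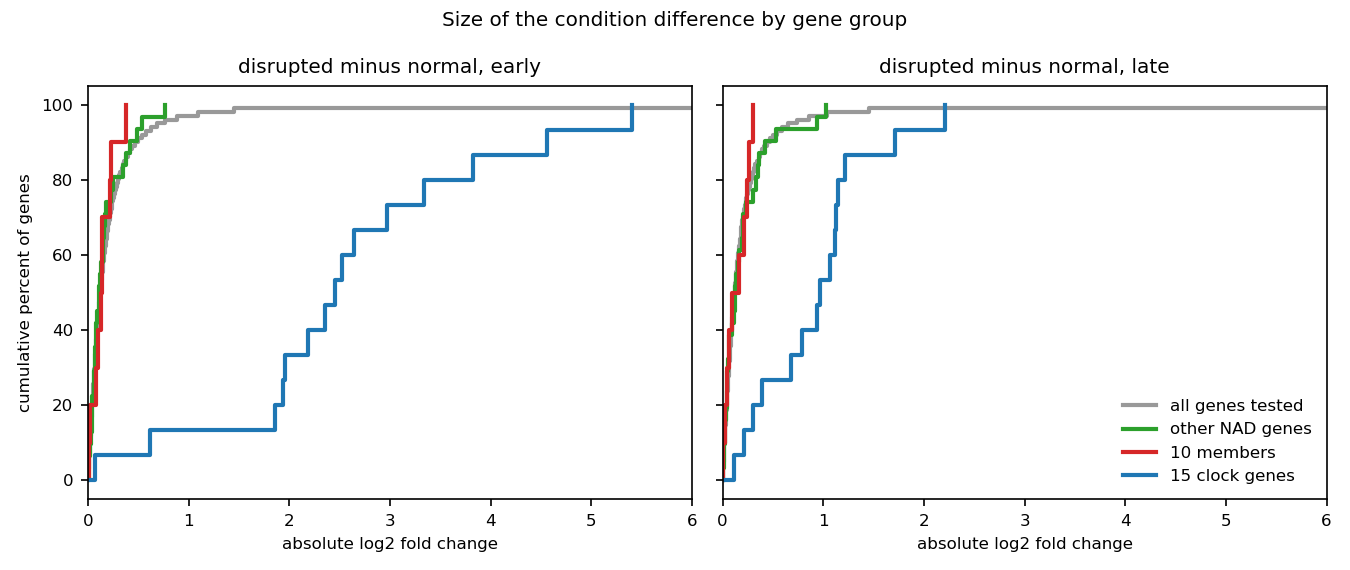
Cumulative percent of genes (vertical axis) against the absolute log2 fold change between conditions (horizontal axis), early and late, for all genes tested (drawn by percentile), 31 other NAD genes, the 10 genes described here and 15 clock genes; the axis ends at 6 and a few genes of the full set lie beyond it. The 10 genes reach at most 0.37 early and 0.30 late and follow the curve of all genes over most of its height, while the clock genes have medians of 2.45 and 0.96.

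From early to late, Sirt1 rose in the disrupted mice. It went from 2.00, 2.76 and 3.21 CPM early to 3.12, 3.55 and 3.97 CPM late, with 1 late mouse, male 1 at 3.12 CPM, below the highest early mouse. The log2 fold change was 0.39 ± 0.12 (interval 0.16 to 0.63), or 31.4%, with adjusted p = 0.0225 in edgeR's quasi-likelihood test. It was the 1 gene of 10 called, where 13.9% of all genes were called in this comparison and 7.36% in this direction. Of the called genes 52.9% were higher late, a share of 37.4% under upper quartile scaling, which kept the call of Sirt1. In normal mice Sirt1 went from 2.36, 3.26 and 3.86 CPM to 3.65, 3.95 and 4.93 CPM, again with overlap, and its log2 fold change of 0.37 (interval 0.14 to 0.61, unadjusted p = 0.00324) had an adjusted p of 0.118.

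The changes of Sirt1 in the 2 conditions differed by 0.02 (interval -0.31 to 0.36, adjusted p = 0.969). The call in disrupted mice was lost in males alone at 0.38 (adjusted p = 0.178), in females alone at 0.41 (adjusted p = 0.111) and without disrupted early female 1 and disrupted late female 1 at 0.38 (adjusted p = 0.0588). It was also lost without disrupted early male 2, early female 3, late male 2 or late female 1, with adjusted p up to 0.0626. In normal mice, leaving out normal early male 3 brought a call at 0.47 (adjusted p = 0.0391). In the same comparison, 2 of 3 tested hepatocyte, 2 of 5 ductal, 1 of 4 stellate and 1 of 4 endothelial genes were called lower. Higher was 1 of 8 acinar genes, where 6.55% of all genes fell and 7.36% rose. The ductal, endothelial and acinar lists went both ways, with 2 of 5, 1 of 4 and 5 of 8 genes above 0. Of 7 adipocyte, 8 tested lymphocyte and 7 macrophage and neutrophil genes, 0 were above 0 and 0 were called. Their medians were -0.638, -0.777 and -0.281. The part of other cells in the rise of Sirt1 was not tested. Gm16145, an antisense gene, shares 65 exonic bases with Sirt1.

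In normal mice 0 of 10 genes passed the test from early to late by edgeR or DESeq2, where edgeR called 0.843% of all genes. At an unadjusted p under 0.05 were 1909 of all 14000 genes and 2 of the 10. The second was Nadk, at 29.0, 29.2 and 30.7 CPM early and 29.8, 33.2 and 35.8 CPM late, with a log2 fold change of 0.16 (interval 0.03 to 0.29, adjusted p = 0.239). In disrupted mice Nadk was at 26.7, 30.1 and 34 CPM early and 28.8, 32.6 and 35.8 CPM late, with 0.13 (interval -0.003 to 0.255). Nampt was at 0.15 (interval -0.05 to 0.35) in normal mice and 0.00 (interval -0.19 to 0.20) in disrupted mice.

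Sex entered 3 planned comparisons. Males against females early, 0 of 10 genes were called by edgeR or DESeq2, where edgeR called 0.893% of all genes. At an unadjusted p under 0.05 were 2253 of all 14000 genes and 1 of the 10. That gene was Nampt, at -0.28 (interval -0.48 to -0.08, unadjusted p = 0.00668, adjusted p = 0.145), males minus females. Markers of other cells also had lower values in the early males: 0 of 7 adipocyte, 0 of 8 tested lymphocyte and 0 of 7 macrophage and neutrophil genes had a log2 fold change above 0, with medians of -1.32, -1.64 and -0.57 and 1, 5 and 5 genes at an unadjusted p under 0.05, though edgeR called 0 of them. Their part in the Nampt value was not tested. The condition difference of males minus that of females called 0 of 10 early and 0 of 10 late with either tool, each with 1 gene at an unadjusted p under 0.05, where edgeR called 0% and 0.0286% of all genes, with 783 and 904 genes at an unadjusted p under 0.05. Early that gene was Sirt3, at 0.48 (adjusted p = 0.866), and late it was Nampt, at 0.46 (interval 0.06 to 0.85, adjusted p = 0.7).

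In the disrupted mice the Nampt levels of the time points lay apart in both sexes, in opposite directions, though neither sex passed the test by itself. The males had 3.64, 3.99 and 3.8 CPM early and 5.53, 4.02 and 5.36 CPM late, and the females 5.61, 4.47 and 4.55 CPM early and 4.28, 3.74 and 3.27 CPM late. All late males lay above all early males, narrowly so for late male 2 at 4.02 CPM against early male 2 at 3.99 CPM, and all late females lay below all early females. Of the 10 genes, 1 had this pattern in disrupted mice, which 1.92% of all genes tested also had. Within the fit of all 24 mice, the log2 fold change from early to late was 0.39 in males (adjusted p = 0.0806) and -0.38 in females (adjusted p = 0.0664).

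A comparison was added after these values were seen: the change from early to late in males minus that in females, within each condition. For Nampt in disrupted mice it was 0.77 ± 0.19 (interval 0.38 to 1.16) with adjusted p = 0.047 in edgeR's quasi-likelihood test, 1 of 10 genes called where 0.929% of all genes were. Since it was chosen for this pattern, it is a description. The call stood in 9 of 31 other settings, and the value lay between 0.57 and 0.90 over all 31, with adjusted p from 0.00998 to 0.178. Leaving out 1 of the 24 mice lost the call in 19 cases. In normal mice the same quantity was 0.16 (interval -0.23 to 0.56, adjusted p = 0.787). There 0 of 10 genes were called by edgeR or DESeq2, and edgeR called 0.05% of all genes. At an unadjusted p under 0.05 were 1605 of all 14000 genes and 1 of the 10, Parp1. Late males were taken on day 9 and late females on day 8, so sex and day cannot be told apart there.

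In 3 of 4 sets of 6 mice, the mouse with the most Nampt was also the one with the most RNA of adipocytes, lymphocytes and myeloid cells. In normal early mice it was highest in female 3 at 5.15 CPM, in disrupted early mice in female 1 at 5.61 CPM and in disrupted late mice in male 1 at 5.53 CPM. The same 3 mice were the highest of their sets for the 7 adipocyte genes, at 39.2, 61.7 and 37.0 CPM summed, for the 10 lymphocyte genes, at 53.0, 112 and 59.2 CPM, and for the 7 macrophage and neutrophil genes, at 54.9, 76.5 and 46.7 CPM. The fourth set, normal late mice, went otherwise: Nampt was highest in female 3 at 4.83 CPM, and all 3 marker sums in male 3, which had 4.40 CPM of Nampt. Disrupted late male 3 also had 5.36 CPM of Nampt with 28.2 CPM of macrophage and neutrophil RNA. Disrupted late female 3 had the least Nampt of all 24 mice, 3.27 CPM, with 32.8 CPM of lymphocyte and 19.4 CPM of adipocyte RNA. In each set the 3 marker sums peaked in the same mouse, so they are not 3 separate observations.

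Without normal early female 3, disrupted early female 1 and disrupted late male 1, the early condition difference of Nampt was 0.12 (adjusted p = 0.616) and the added comparison by sex 0.57 (adjusted p = 0.178). The part of these cells in the level of Nampt was not tested further.

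**Figure D4:**
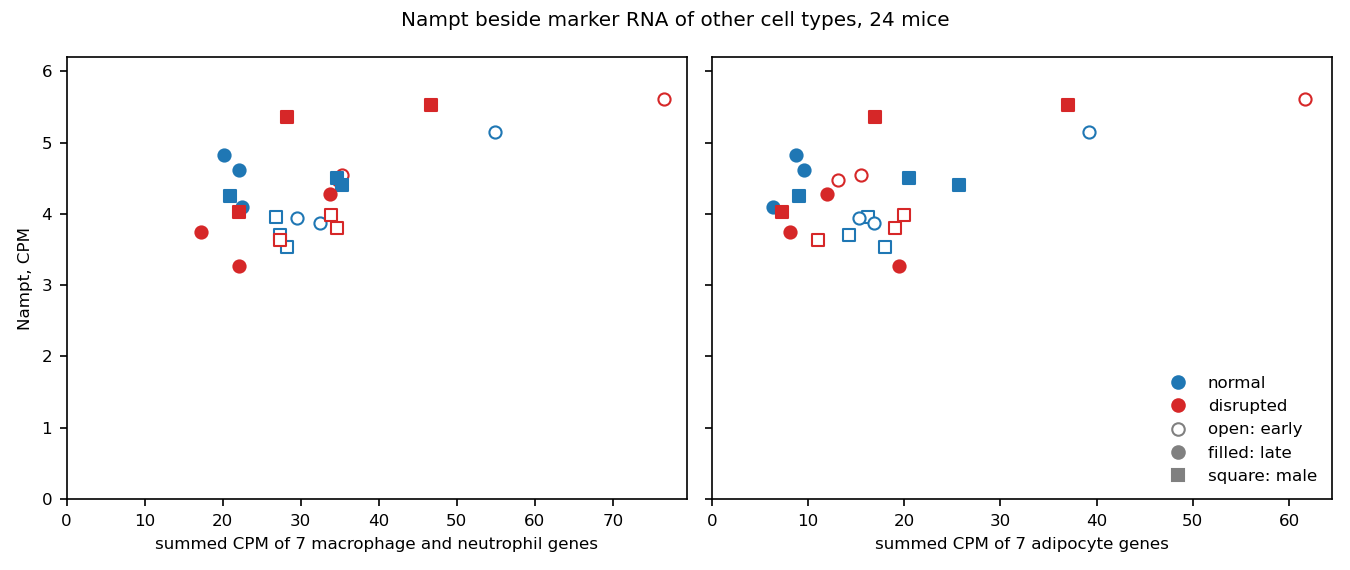
Nampt in CPM (vertical axis) against the summed CPM of 7 macrophage and neutrophil genes (left) or 7 adipocyte genes (right) in each of 24 mice; blue marks are normal and red disrupted, open early and filled late, squares males and circles females. The 3 mice farthest to the right, at 46.7 to 76.5 CPM and 37.0 to 61.7 CPM, had 5.15 to 5.61 CPM of Nampt, and the other 21 mice had 3.27 to 5.36 CPM.

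Over the 24 mice the genes whose log2 CPM followed Nampt most closely were Mob3a (Pearson r = 0.76), Msr1, a scavenger receptor of macrophages (0.73), S100a10 (0.71), Ankrd35 (0.71) and Cyba, a subunit of the phagocyte oxidase (0.70). For Naprt they were Cnnm3 (0.76), Acp6 (0.76), Rbm18 (0.75), Slc37a1 (0.74) and Ocln, the tight junction gene (0.73). These values describe 24 libraries that share groups and tissue makeup, and were picked as the highest of all genes tested. Among the 45 pairs of the 10 genes, r ran from -0.54 for Nampt and Parp1 to 0.53 for Naprt and Sirt3, with a median of -0.06.

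Of 43 further genes of NAD synthesis, use and transport, 31 were tested. Of these 31, edgeR called 0 early, late or in the difference between these effects, where it called 4.56%, 1.35% and 4.77% of all genes. At an unadjusted p under 0.05 were 2, 3 and 4 of the 31, beside 2482, 2050 and 2515 of all 14000 genes. The most abundant of the 31 in CPM were the mitochondrial NAD carrier Slc25a51, at 22.1 to 29.7 CPM, and the cytoplasmic deacetylase Sirt2, at 16.4 to 21.1 CPM. Of the 9 genes of synthesis from tryptophan, 7 were below the filter, among them Qprt at up to 0.21 CPM, and Nmrk2, the second riboside kinase, had 0 counts in all mice. Early, the other sirtuins, Sirt2, Sirt4, Sirt5 and Sirt7, had log2 fold changes of -0.06 to 0.04, and the 14 other genes of ADP-ribosylation had -0.13 to 0.41.

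From early to late in disrupted mice 1 of the 31 rose and 2 fell, where 7.36% of all genes rose and 6.55% fell. Parg, which removes poly(ADP-ribose), rose by 0.36 on the log2 scale (adjusted p = 0.0169). Parp9 fell by 0.33 (adjusted p = 0.0202), and Sarm1, an NAD glycohydrolase known from axon loss, fell by 0.82 (adjusted p = 0.0224) at a level of 0.27 to 0.95 CPM. In normal mice 0 of the 31 were called by edgeR from early to late, where it called 0.843% of all genes. At an unadjusted p under 0.05 were 2 of the 31, beside 1909 of all 14000 genes. Males against females early, Parp3 was lower in males by a log2 value of -0.79 (adjusted p = 0.0456 in edgeR's quasi-likelihood test). It was the 1 gene of the 31 called, where 0.893% of all genes were. At an unadjusted p under 0.05 were 8 of the 31, beside 2253 of all 14000 genes.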

How the data were processed

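RNA of whole pancreas was prepared with a modified RNeasy mini protocol after cervical dislocation and made into Truseq libraries, per the labels' protocols. The deposited table holds expected counts, estimates that share reads among the genes they fit, as the authors made them. The submitters' processing notes name build GRCm38.p5, edgeR 3.28.0, RSEM, STAR 2.5.3a and bcl2fastq 2.20, without their roles; the annotation and strand setting are not stated there.

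Symbols, loci and exon lengths came from GENCODE M21 (GRCm38), which matched 51633 of 51912 identifiers, and promoter windows from RefSeq. Expected counts were rounded, which altered 7.97% of values. After edgeR's filterByExpr, 14000 genes were fitted in edgeR 4.0.16 (R 4.3.3) with TMM factors (0.943 to 1.12), 8 group means over all 24 mice and the robust quasi-likelihood test. Each comparison weighted males and females equally, and p-values were adjusted by Benjamini-Hochberg over all genes of a comparison at a threshold of 0.05. Intervals are 95% confidence intervals of the model, and CPM are library-scaled counts. The test was checked on simulated data. Depth was 31325562 to 62390463 counts per mouse. Counting errors cover sampling of reads only, which are not independent molecules.

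There were 8 planned comparisons and 2 added after the values were seen. The alternatives were upper quartile and DESeq2 scaling, the DESeq2 1.42.0 test, no low-count filter, the replicate number as a block, each sex alone, and leaving out mice. Comparisons of each sex alone were made within the fit of all 24 mice, with its shared estimate of the spread. The 10 genes and all lists were chosen with earlier results of these data known. All 10 genes are named, as are called genes of the wider NAD list and the 5 genes most like Nampt and Naprt. The series' design text speaks of 6 mice per condition and time point, and mice were treated as separate animals. The replicate numbers were not used as pairs in the main fit. Over 84 pairs of groups and numbers the correlation of deviations was -0.209 to 0.402, with 15 over 0.1. This cannot show what the numbers stand for.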

Additional observations from a re-analysis of the deposited data

Results flagged for a closer look

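Nampt in normal early female 3, at 5.15 CPM, stood apart from the other 5 mice of its set, which had 3.53 to 3.96 CPM. The same mouse had the highest adipocyte, lymphocyte and myeloid marker sums of the set. Nmnat1 in disrupted late female 1, at 0.883 CPM, lay below the other 5 mice of its set, at 1.09 to 1.18 CPM. These were 2 of 40 combinations of a gene and a set of 6 mice, and chance alone gives about 1 in 20.

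The change of Nampt from early to late in disrupted mice differed between males and females by 0.77 on the log2 scale (adjusted p = 0.047 in edgeR's quasi-likelihood test). This comparison was added after the values were seen, and most fits that left out 1 mouse lost the call.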

How the results depend on the processing

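No called value of the 10 genes changed sign under any setting run; uncalled values did so 183 times over the 10 genes and 10 comparisons. The number of members called early, 1, became 0 in males only, in females only, without disrupted early female 1 and disrupted late female 1, and without the 3 mice rich in macrophage and adipocyte RNA (a setting chosen after seeing the data), and was 0 to 1 over fits leaving out 1 mouse. From early to late in disrupted mice, 1 became 0 under the first 3 of these and was 0 to 1 over fits leaving out 1 mouse; in normal mice it was 0 to 1 over these. In the added comparison by sex in disrupted mice, 1 became 0 with the replicate block, without the 2 mice and without the 3, and was 0 to 1 over fits leaving out 1 mouse; under the block Nampt was at 0.77 (adjusted p = 0.0505). The block changed no other count of members. Each mouse correlated best with its own number in 63 of 168 checks, each a choice among 3 mice, where chance gives 1 in 3. This does not show what the numbers stand for. The causes were not tested. The comparisons of 1 sex, made within the fit of all 24 mice, rest on 3 mice per condition and time point.

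Counts over all genes moved more. Early, 639 became 180 in males, 210 in females and 406 without the 3 mice. Late, 189 became 333 without the filter, 97 in males, 21 in females, 311 without the 2 mice and 100 without the 3. Their difference, 668, became 201 in males and 285 in females. From early to late in disrupted mice, 1948 became 948 in males and 1283 without the 3 mice; in normal mice, 118 became 211 without the filter, 312 in males, 0 in females (1208 at an unadjusted p under 0.05) and 252 with DESeq2. Males against females early, 125 became 301 without the filter, 62 without the 3 mice and 258 with DESeq2. The condition by sex late, 4, became 16 without the filter, 2 with the block and 36 with DESeq2. The added comparison by sex, 130 in disrupted mice, became 276 without the filter and with DESeq2, 44 without the 2 mice and 27 without the 3; in normal mice, 7 became 13 with DESeq2 scaling, 91 without the filter, 28 without the 2 mice, 3 without the 3 and 87 with DESeq2.

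The intervals of Sirt6, with 6 mice per set, were the widest of the 10 genes in the condition and time comparisons. Sirt6 had 22 to 71 counts per mouse and a coefficient of variation of 23.9%, and Nmnat1 had 27 to 68 counts and 12.5%.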

Other observations

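Nnt, the mitochondrial transhydrogenase that passes electrons between NADH and NADP, varied more than nearly all genes of its level. Its level ran from 0.106 to 6.64 CPM over the 24 mice, with 5 mice under 1 CPM and 19 at or above it. The lowest were normal early female 2 at 0.106 CPM, normal early male 2 at 0.151 CPM, normal late female 3 at 0.237 CPM and disrupted early male 2 at 0.298 CPM, and the highest was normal early male 3 at 6.64 CPM, so single groups held both ends of the range. Its coefficient of variation was 69.7%, beside a median of 14.7% over 2721 genes of like level, of which 99.2% varied less. C57BL/6J mice are known for a deletion within Nnt, and the labels give the strain of all 24 mice as C57Bl/6J. The condition difference was -0.54 early (adjusted p = 0.767 in edgeR's quasi-likelihood test) and 0.94 late (adjusted p = 0.543). From early to late Nnt was at 1.55 in disrupted mice (95% confidence interval 0.10 to 3.01, unadjusted p = 0.0374, adjusted p = 0.147) and at 0.08 in normal mice (adjusted p = 0.978). The 11 lowest mice held no disrupted late mouse. This gene was singled out after its values were seen, and no cause of the spread was tested.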
